A study of Homo sapiens with 4 samples.

Results

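The mitochondrial ribosomal protein genes were examined in 2 human breast cancer cell lines with and without FBP1. They were taken as every gene whose symbol begins with MRPL or MRPS followed by a number, from probe sets annotated to 1 gene, with pseudogenes left out. This gave 73 genes, 48 of the large subunit (MRPL) and 25 of the small subunit (MRPS), of 15946 genes tested. All 73 passed the filter on low values, with means over the 4 arrays from 8.12 to 12.80 log2. Levels of different genes are not ranked here, because probes differ in brightness.

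Both lines, MDA-MB231 and Hs578T, are established and are given as basal-like in the labels. FBP1 encodes an enzyme of gluconeogenesis, and cells of either line were made to express it as stable clones. The labels do not say whether an array holds 1 clone or several, nor what the control cells carried. The groups were MDA-MB231 control, MDA-MB231 expressing FBP1, Hs578T control and Hs578T expressing FBP1, each with 1 array. All cells were grown in the same medium with serum and harvested in log-phase growth. A difference within a line therefore has no replicate check, and fewer cells of a type and less RNA per cell cannot be told apart.

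FBP1 itself stood at 9.83 log2 in control and 13.07 in FBP1 cells of MDA-MB231, and at 6.35 and 13.35 in those of Hs578T, so the introduced gene matched its labels. Array medians lay between 7.83 and 7.86 log2. The mesenchymal markers VIM, CD44 and CAV1 lay at 13.66 to 13.92 on all 4 arrays. The basal keratin KRT5 was low on all of them, at 6.80 to 6.93. Of 4 leukocyte markers, 1 passed the filter, CD14 at 7.41 to 8.30, and PTPRC was below it, at 4.52 to 4.96. Fibroblast markers differed between the lines, with DCN at 5.09 and 5.25 in MDA-MB231 and 10.42 and 10.68 in Hs578T. Of 10 luminal epithelial markers, EPCAM was higher in MDA-MB231, at 9.47 and 9.43 against 6.55 and 6.26, whereas KRT18 overlapped, at 12.59 and 12.65 against 12.33 and 12.71, and FOXA1 was lower, at 8.11 and 8.06 against 8.33 and 8.50.

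Mitochondria keep their own ribosome, which makes the few respiratory chain subunits encoded by mitochondrial DNA. Its RNAs come from mitochondrial DNA, but its proteins are encoded in the nucleus, made in the cytosol and imported. Many of the proteins have bacterial homologues, and others are found only in mitochondria. Factors of the NRF1, ETS (GA-binding protein) and YY1 families are known to bind promoters of nuclear genes for mitochondria.

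The promoters of 5 genes are printed because these genes had some of the largest FBP1 differences described below: MRPL1, MRPL57, MRPS9 and MRPL36 were the 4 highest in Hs578T, and MRPL48 was the lowest in MDA-MB231. Each line gives the 250 bases before the RefSeq gene start in GRCh38.p14, 5′ to 3′ on the gene's strand, and capitals mark matches to the motifs named after the sequences. MRPL1 lies at chr4:77862580-77862829 (plus strand), MRPL57 at chr13:21176408-21176657 (plus), MRPS9 at chr2:105037819-105038068 (plus), MRPL36 at chr5:1799838-1800087 (minus) and MRPL48 at chr11:73787624-73787873 (plus).
MRPL1: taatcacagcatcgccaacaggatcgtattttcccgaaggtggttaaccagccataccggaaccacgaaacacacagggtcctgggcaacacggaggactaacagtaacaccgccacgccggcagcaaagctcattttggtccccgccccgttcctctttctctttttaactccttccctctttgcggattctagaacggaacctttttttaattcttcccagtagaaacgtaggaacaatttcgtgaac
MRPL57: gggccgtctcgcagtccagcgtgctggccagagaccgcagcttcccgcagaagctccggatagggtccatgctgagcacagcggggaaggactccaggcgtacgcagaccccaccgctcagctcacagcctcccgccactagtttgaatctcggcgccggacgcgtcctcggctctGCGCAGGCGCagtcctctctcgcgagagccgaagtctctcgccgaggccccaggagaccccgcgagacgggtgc
MRPS9: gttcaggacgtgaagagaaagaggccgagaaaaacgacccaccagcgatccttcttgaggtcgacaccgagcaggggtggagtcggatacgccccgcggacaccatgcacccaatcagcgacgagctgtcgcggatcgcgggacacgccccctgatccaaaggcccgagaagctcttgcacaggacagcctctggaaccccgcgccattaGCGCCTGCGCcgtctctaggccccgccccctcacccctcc
MRPL36: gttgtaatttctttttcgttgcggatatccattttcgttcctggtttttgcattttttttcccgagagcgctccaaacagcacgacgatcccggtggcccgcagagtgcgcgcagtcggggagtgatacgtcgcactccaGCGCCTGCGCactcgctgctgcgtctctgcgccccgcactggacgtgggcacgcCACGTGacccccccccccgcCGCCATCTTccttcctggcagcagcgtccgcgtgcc
MRPL48: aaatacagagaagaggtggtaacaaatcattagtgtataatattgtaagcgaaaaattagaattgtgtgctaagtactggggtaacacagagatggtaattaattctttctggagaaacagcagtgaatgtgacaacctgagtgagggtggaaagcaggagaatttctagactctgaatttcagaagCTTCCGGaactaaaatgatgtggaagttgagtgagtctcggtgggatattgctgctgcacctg

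The motifs searched were GCGCA, any base and GCGC in a row for NRF1, CCGGAAG for ETS factors, AAGATGGCG for YY1, the E-box CACGTG and the TATA box TATAAA, on both strands of a window of 250 bases before and 50 after the start. The windows of 66 of the 73 genes were in the RefSeq promoter table. The ETS motif was in 28 of the 66 (42.4%), against 14.2% of 15842 protein-coding promoters. The YY1 motif was in 12 (18.2%), against 2.74%, and the NRF1 motif in 8 (12.1%), against 8.57%. The E-box was in 6 (9.09%), against 8.88%, and the TATA box in 2 (3.03%), against 9.63%. In the printed stretches the NRF1 motif stands in MRPL57, MRPS9 and MRPL36, the YY1 motif and the E-box stand only in MRPL36, and the ETS motif stands only in MRPL48. The genes next highest in Hs578T, MRPL46, MRPS27, MRPL39 and MRPL11, are not printed. They had none of these motifs in the 250 bases before the start, and MRPL46 had the YY1 motif only in the 50 after it. A match describes the letters and is not shown to be a bound site.

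The first comparison asked what changed with FBP1 in Hs578T. Most of the 73 genes were slightly higher with FBP1, and none differed by 1.5-fold in either direction. Of the 73, 63 lay above control, against 54.9% of all genes tested, and 10 lay below, against 45.1%. At least 1.2-fold (0.263 log2), 12 were higher, against 9.86% of all genes, and 0 were lower, against 9.34%. The median change was 0.106 log2, against 0.0213 for all genes. Of all genes, 3.08% differed by 1.5-fold, 1.39% higher and 1.69% lower. These are differences between single arrays, and no test was possible within the line.

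The 2 genes farthest above control were large subunit genes. MRPL1 encodes the protein of the L1 stalk, which stands beside the site where spent tRNA leaves. It stood at 9.13 log2 in control and 9.11 in FBP1 cells of MDA-MB231, and at 8.73 and 9.17 in those of Hs578T. The Hs578T control was thus the low array, and the other arrays lay close together. The FBP1 array of Hs578T was 1.36-fold above its control.

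MRPL57, a mitochondrion-specific protein, stood at 9.34, 9.24, 8.67 and 9.10 in the same order of arrays, and was 1.34-fold higher with FBP1 in Hs578T. As for MRPL1, its Hs578T control was the lowest of the 4. MRPL36, the homologue of bacterial L36, stood at 11.77, 11.93, 11.38 and 11.73, higher with FBP1 in both lines. A second probe set of MRPL36 gave changes of 0.09 and 0.34, close to the 0.16 and 0.35 of the one used. MRPL46 (11.45, 11.42, 10.71 and 11.03), MRPL39 (11.53, 11.52, 11.48 and 11.79) and MRPL52 (9.78, 9.96, 8.73 and 9.03), all mitochondrion-specific, were 1.25-fold, 1.24-fold and 1.23-fold higher in Hs578T.

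The factor-binding stalk, on which translation factors land, had 2 of its 3 genes past 1.2-fold in Hs578T. MRPL11, at the base of the stalk, was at 11.05 and 10.99 in MDA-MB231 and at 10.02 and 10.33 in Hs578T. MRPL12, the stalk protein that recruits the factors, was at 10.98 in the MDA-MB231 control and 0.02 above that with FBP1, and at 10.39 and 10.66 in Hs578T. MRPL10, which carries MRPL12, had differences of 0.03 and 0.07. MRPL14, at the interface with the small subunit, stood at 11.32, 11.25, 10.29 and 10.55, and its change of 0.27 was just past the 1.2-fold line.

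Small subunit genes past 1.2-fold in Hs578T were MRPS9, MRPS27 and MRPS18B. MRPS9, the homologue of bacterial S9 in the head of the subunit, stood at 8.84, 8.88, 7.87 and 8.23 in the same order of arrays. MRPS27, a pentatricopeptide repeat protein, stood at 11.66, 11.69, 11.23 and 11.55. MRPS18B, an S18 family member, stood at 10.68, 10.87, 10.04 and 10.34, so it was higher with FBP1 in both lines, and its 3 probe sets hold identical values. In MRPS9, MRPS27 and MRPS18B, both Hs578T arrays stayed below both MDA-MB231 arrays, as for 35.8% of all genes tested.

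The genes below control in Hs578T differed little. MRPL13, the homologue of bacterial L13, was lowest, at −0.14, with 8.74 in the control and 8.60 with FBP1. MRPL16 (−0.10), MRPL48 (−0.08), MRPL30 (−0.07), MRPS7 (−0.06), MRPL45 (−0.04), which anchors the ribosome to the inner membrane, and MRPL41 (−0.03) followed. The remaining 3, MRPL22, MRPL53 and MRPL44, lay within 0.0048 of control.

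**Figure D1:**
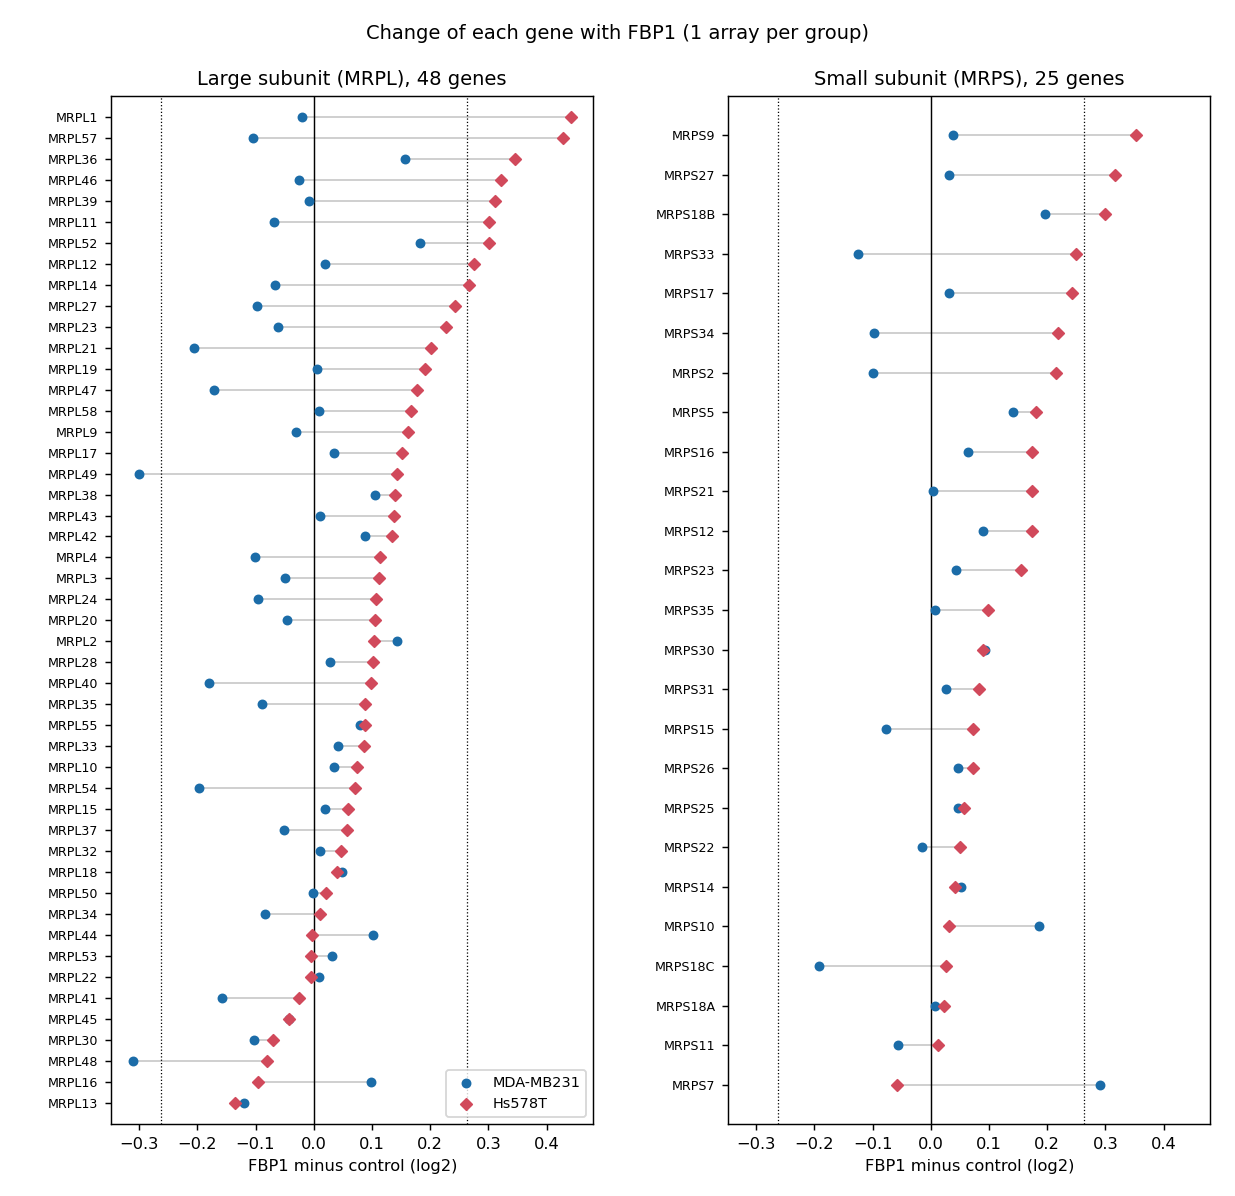
Change of each of the 73 genes with FBP1, as log2 FBP1 minus control (horizontal axis), in MDA-MB231 (circles) and Hs578T (diamonds), 1 array per group; grey lines join the lines of a gene and dotted lines mark 1.2-fold. In Hs578T 63 of 73 genes lie to the right of 0, with MRPL1 (0.44) and MRPL57 (0.43) farthest, whereas in MDA-MB231 39 do.

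The same question was put to MDA-MB231, where the genes were spread about evenly around control. Of the 73, 39 lay above control, against 48.2% of all genes tested, and 34 below, against 51.8%. The median change was 0.0068 log2, against −0.00528 for all genes. At least 1.2-fold, 1 gene was higher, against 4.36% of all genes, and 2 were lower, against 4.16%. None differed by 1.5-fold, against 0.627% of all genes, 0.301% higher and 0.326% lower.

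The gene past 1.2-fold on the higher side was MRPS7, the homologue of bacterial S7 in the head of the small subunit. It was at 9.85 in the control and 10.14 with FBP1, whereas in Hs578T it was at 10.07 and 10.01. The genes on the lower side were MRPL48, a protein of the central protuberance, at 9.89 and 9.58, and MRPL49, at 11.26 and 10.95. In Hs578T, MRPL48 was at 10.00 and 9.92 and MRPL49 at 11.24 and 11.38. No gene was past 1.2-fold in both lines, in the same or in opposite directions.

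Also above control in MDA-MB231 were MRPS18B (0.20), MRPS10 (0.19), MRPL52 (0.18), MRPL36 (0.16), MRPL2 (0.14), MRPS5 (0.14) and MRPL38 (0.10). Below control were MRPL21 (−0.21), MRPL54 (−0.20), MRPS18C (−0.19), MRPL40 (−0.18), MRPL47 (−0.17) and MRPL41 (−0.16). MRPS10 lies in the head of the small subunit, MRPL2 close to the peptidyl transferase centre, and MRPL47, the homologue of bacterial L29, at the end of the exit tunnel.

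Setting the lines side by side, 34 genes were above control in both, against 27.2% of all genes tested, and 5 were below control in both, against 24%. A further 29 were below control in MDA-MB231 and above it in Hs578T, against 27.7%, and 5 were the reverse, against 21%. The change was higher in Hs578T than in MDA-MB231 for 61 of 73, against 54.7%. The widest gaps between the lines' changes were 0.53 for MRPL57, 0.46 for MRPL1, 0.44 for MRPL49 and 0.41 for MRPL21. In the opposite direction, MRPS7 had a gap of −0.35 and MRPL16, close to the catalytic core, of −0.19. Across the 73 genes, which share the arrays of each line, the changes in MDA-MB231 and Hs578T correlated at r = 0.0687 (rho = 0.0136). The difference between the lines' changes uses all 4 arrays and leaves no residual degrees of freedom, so it was not tested.

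Taking FBP1 over both lines together, 0 of the 73 genes passed limma at adjusted p under 0.05, against 0% of all genes. At unadjusted p under 0.05 limma gave 2 of the 73, against 5.14% of all genes, or 2.71% counting only those higher with FBP1. They were MRPL36, with a mean log2 change of 0.25 and a standard error of 0.09, and MRPS18B, with 0.25 and 0.10, both higher in 2 of 2 lines. The limma adjusted p was 0.943 for each. The introduced gene FBP1 was not called either, so the count of 0 does not show that no gene changed.

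The large and small subunits were then compared. In Hs578T their medians were close, at 0.107 log2 for the 48 large subunit genes, 39 of them above control, and 0.0975 for the 25 small subunit genes, 24 of them above. Of all genes tested, 54.9% were above control there. In MDA-MB231 the large subunit median was −0.0234, with 21 of 48 above control, and turned to 0.0006 with quantile normalization. The small subunit median there was 0.0316, with 18 of 25 above control. In that line 48.2% of all genes tested were above control. The small minus large difference in medians was thus 0.055 in MDA-MB231 and −0.0093 in Hs578T. MRPS18A and MRPS30 carry small subunit names but are found in the large subunit in structures. With both moved, the difference was 0.0462 in MDA-MB231 and turned to 0.0494 in Hs578T. No test was run on the subunits, whose genes are not replicates.

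**Figure D2:**
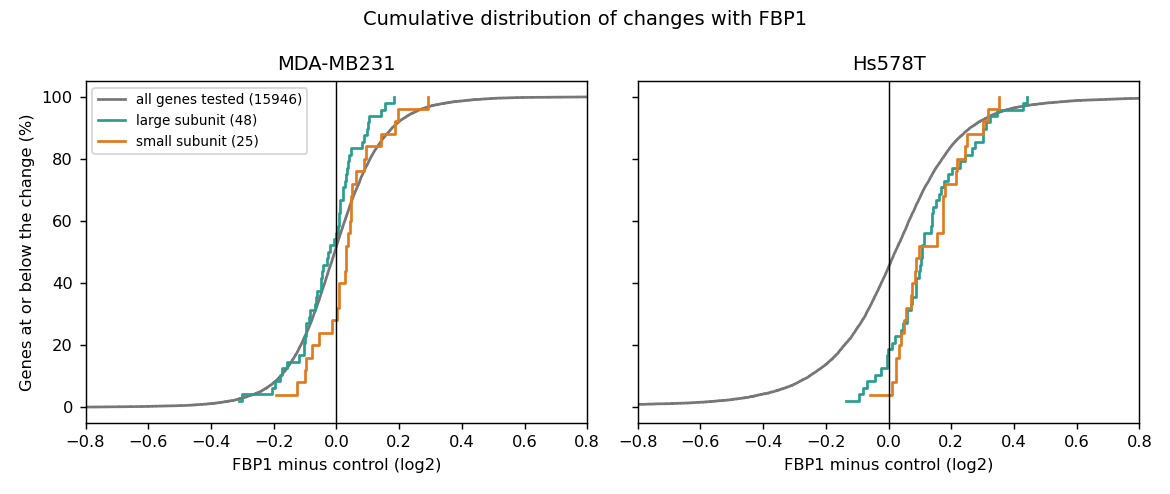
Cumulative share of genes (vertical axis, percent) at or below each log2 change with FBP1 (horizontal axis, cut at 0.8 either way), for all 15946 genes tested, the 48 large subunit genes and the 25 small subunit genes. In Hs578T both subunit curves lie to the right of the curve for all genes over the lower changes, with medians of 0.107 and 0.0975 against 0.0213; in MDA-MB231 the medians are −0.0234, 0.0316 and −0.00528.

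By place in the ribosome, the 3 factor-binding stalk genes had the highest median change in Hs578T among the sites with at least 3 genes, 0.276. The 8 genes of the central protuberance, where the large subunit meets the head of the small one, had a median of 0.154. Of these, 7 were above control, against 54.9% of all genes tested. The 7 genes of the exit tunnel, through which the new chain leaves, had medians of 0.113 in Hs578T and −0.0618 in MDA-MB231. The genes assigned here to the small subunit head were 4, MRPS7, MRPS9, MRPS10 and MRPS14. Their medians ran the other way, with 0.118 in MDA-MB231 and 0.0364 in Hs578T. All 4 were above control in MDA-MB231, against 48.2% of all genes tested. MRPS9 itself changed more in Hs578T (0.35) than in MDA-MB231 (0.04). The assignment may miss genes of a site, since MRPS31, MRPS33 and MRPS35, among others, were given none. In MDA-MB231 and Hs578T, MRPS31 changed by 0.03 and 0.08, MRPS33 by −0.13 and 0.25, and MRPS35 by 0.01 and 0.10. Each of these was higher in Hs578T, unlike the medians of the genes assigned to the head. MRPS12, at the decoding centre, had differences of 0.09 and 0.17.

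By origin, the 44 genes with bacterial homologues had median changes of 0.0062 (MDA-MB231) and 0.11 (Hs578T). Those of the 29 mitochondrion-specific genes were 0.0071 and 0.0975. Genes with the NRF1 motif were 8, and their median change in Hs578T was 0.258, against 0.104 for the 58 genes without it. In MDA-MB231 the order was the reverse, at −0.0542 with and 0.00813 without it. They were MRPL57, MRPS9, MRPL36, MRPL14, MRPS33, MRPL17, MRPL45 and MRPL30, with changes from 0.43 down to −0.07. Genes with and without the ETS motif had medians of 0.104 and 0.123, and those with and without the YY1 motif 0.111 and 0.11, in Hs578T. In MDA-MB231 these were 0.008 and 0.00635 for the ETS motif and 0.0908 and −0.0115 for the YY1 motif. The motif groups were set after the changes were known and were not tested.

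Other genes of mitochondrial translation were taken from lists. Of ribosomal proteins under other names, CHCHD1 differed from control by 0.20 in MDA-MB231 and 0.41 in Hs578T, DAP3 by 0.02 and −0.12, PTCD3 by 0.03 and −0.08, and GADD45GIP1 by −0.13 and 0.06. The 25 ribosome assembly genes had medians of 0.037 and 0.00596, with 2 at least 1.2-fold higher in Hs578T, against 9.86% of all genes tested. The 2 were TFB1M and RBFA. TFB1M, which methylates the small subunit rRNA, stood at 8.50 and 8.67 in MDA-MB231 and 8.38 and 8.79 in Hs578T. The assembly factor gene RBFA stood at 8.76, 8.90, 9.56 and 9.82. Both were higher with FBP1 in each line.

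The 15 genes listed for translation factors and related steps, with LRPPRC, SLIRP and OXA1L among them, had medians of −0.00459 and 0.0881. At least 1.2-fold in Hs578T, the initiation factor gene MTIF2 was lower (−0.34), against 9.34% of all genes tested. None was higher, against 9.86%. The 19 genes listed for charging mitochondrial tRNAs, tRNA synthetase genes with QRSL1, GATB and GATC, had medians of 0.0527 and 0.0883. At least 1.2-fold, 3 were higher in MDA-MB231, against 4.36% of all genes tested. In Hs578T 3 were higher, GATB (0.32) among them, against 9.86%, and 1 was lower, HARS2 (0.37 and −0.28), against 9.34%. The 16 genes of mitochondrial DNA expression had medians of −0.0333 and 0.0552. At least 1.2-fold higher in Hs578T was 1, PRORP (0.28), which processes mitochondrial tRNAs, against 9.86% of all genes tested. Limma called 0 of the genes in these lists for FBP1 at adjusted p under 0.05.

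Among regulators of nuclear genes for mitochondria, NRF1 differed from control by −0.02 and 0.01, MYC by −0.02 and 0.08, YY1 by −0.11 and 0.08, and PPARGC1A, a coactivator of mitochondrial biogenesis, by 0.10 and −0.10. The coactivator gene PPRC1 stood at 10.76 and 10.79 in MDA-MB231 and 9.72 and 10.11 in Hs578T. GABPA, the ETS subunit of GA-binding protein, was lower with FBP1 in both lines on the probe set used. It stood at 9.44 and 9.15 in MDA-MB231 and 9.89 and 9.53 in Hs578T. The gene has 2 probe sets, and the other is not shown here, so the decrease rests on 1 of them.

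Most genes of the lists for the cytosolic ribosome and for DNA replication and S phase were also above control in Hs578T. Of 60 cytosolic ribosomal protein genes, 49 were above control there, against 54.9% of all genes tested, with a median of 0.0767. In MDA-MB231 31 were above, against 48.2%, with a median of 0.00225. Of the 22 listed DNA replication and S phase genes, 22 were above control in Hs578T, against the same 54.9%, with a median of 0.298. In MDA-MB231 4 were above, against 48.2%, with a median of −0.0944. The DNA polymerase subunit gene POLE2 stood at 9.21 and 9.89 in Hs578T. The part of proliferation in the result was not tested, and no test compared the mitochondrial with the cytosolic ribosome.

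**Figure D3:**
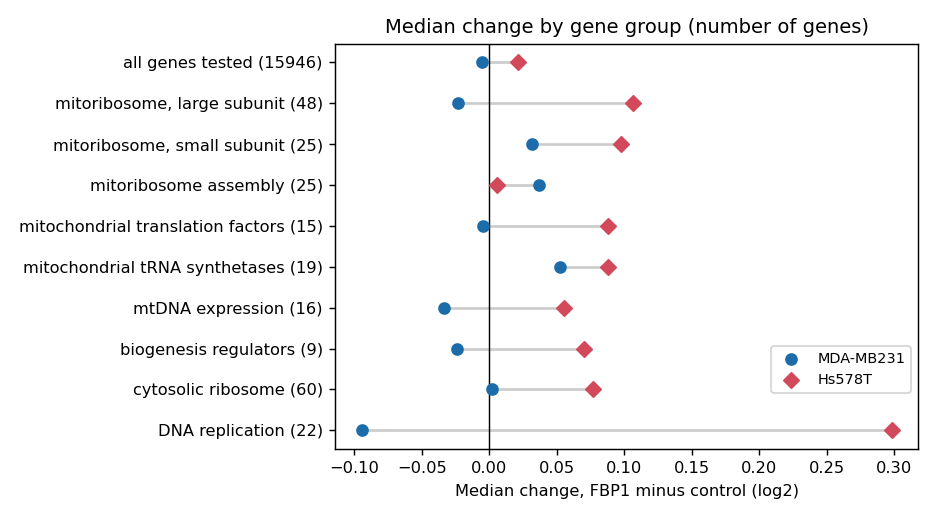
Median log2 change with FBP1 (horizontal axis) of each gene group (vertical axis, number of genes in brackets) in MDA-MB231 (circles) and Hs578T (diamonds). The Hs578T medians are 0.107 and 0.0975 for the subunits of the mitochondrial ribosome, 0.0767 for the cytosolic ribosome and 0.298 for DNA replication, against 0.0213 for all genes tested.

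The lines themselves differed more than control and FBP1 cells did. Limma called 29 of the 73 genes between the lines at adjusted p under 0.05, against 40.8% of all genes tested. The arrays of a line are its control and its FBP1 array, so no line has replicate cultures of the same kind. The residual of the fit is the difference between the lines' FBP1 changes, and the p-values do not measure spread between cultures. Of these, 23 were higher in MDA-MB231, against 21.8% of all genes, and 6 were higher in Hs578T, against 19%. Both MDA-MB231 arrays lay above both Hs578T arrays for 39 genes, against 35.8%, and below them for 19, against 37.2%. The median difference, Hs578T minus MDA-MB231, was −0.149 log2 over the 73 genes and 0.0173 over all genes. Fits with 1 array left out had line as the only term, since line and construct together leave no residual degrees of freedom. The lone array was assumed to vary like the pair of the other line, which alone gave the spread. That pair is a control and an FBP1 array, so its spread includes the FBP1 change. Without the MDA-MB231 control array such a fit called 8 genes higher in MDA-MB231 and 1 higher in Hs578T, and without its FBP1 array 7 and 1. Without the Hs578T control array the counts were 19 and 11, and without its FBP1 array 30 and 5. With all 4 arrays, line as the only term gave 23 and 8. The shares of all genes tested are not given for these fits on line alone. Their counts show only how the numbers move with the fit, not whether the 73 genes differ from the rest.

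The largest differences in favour of MDA-MB231 were close to 2-fold. MRPS10 was at 11.54 and 11.72 in MDA-MB231 and at 10.62 and 10.65 in Hs578T, 1.99-fold higher (limma log2 difference −0.99, SE 0.09, adjusted p 0.000527). MRPL52, of the central protuberance, was 1.99-fold higher (adjusted p 0.000793 with limma). MRPL14 was 1.82-fold higher (0.00192), MRPL2, at 11.44 and 11.59 against 10.61 and 10.72, was 1.80-fold higher (0.000804) and MRPL11 was 1.80-fold higher (0.00266), all with limma.

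MRPS9, 1.76-fold, MRPS2, 1.63-fold higher in MDA-MB231, and MRPS18B, with a log2 difference of −0.58, followed, with limma adjusted p of 0.00296, 0.00333 and 0.00492. These 8 genes were chosen for their large differences. For each of them both MDA-MB231 arrays lay above both Hs578T arrays, as for 35.8% of all genes tested. The remaining 15 that were called had log2 differences between −0.58 (MRPL33) and −0.26 (MRPL45). At least 1.5-fold, 7 were higher in MDA-MB231, against 11.9% of all genes, and 0 in Hs578T, against 10.8%.

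The 6 genes higher in Hs578T were all under 1.5-fold. MRPL20 led, at 11.19 and 11.14 in MDA-MB231 and 11.63 and 11.74 in Hs578T (1.43-fold, limma adjusted p 0.00559), and its 2 probe sets hold identical values. MRPL15 (0.43), MRPS21 (0.41), MRPL40 (0.40), MRPL21 (0.38) and MRPL22 (0.31) followed on the log2 scale. MRPL21 and MRPL22 were close to the threshold, with limma adjusted p of 0.0486 and 0.0495. With either MDA-MB231 array left out, in fits on line alone whose spread came from the Hs578T pair, MRPL15, MRPS21, MRPL40, MRPL21, MRPL22 and MRPS18B were not called, with limma adjusted p from 0.0595 to 0.243. Their directions were kept, and the differences of MRPL15 (0.44 and 0.42) and MRPS21 (0.41 in each) stayed about as large.

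By subunit, 14 of 48 large and 9 of 25 small subunit genes were called higher in MDA-MB231, against 21.8% of all genes tested. In Hs578T 5 large and 1 small were called higher, against 19%. The median difference was −0.0645 for the large and −0.189 for the small subunit. Between the control arrays the median over the 73 genes was −0.2, and between the FBP1 arrays −0.079. The same 4 arrays give these values and the FBP1 changes, so the narrower gap restates that Hs578T was higher with FBP1.

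**Figure D4:**
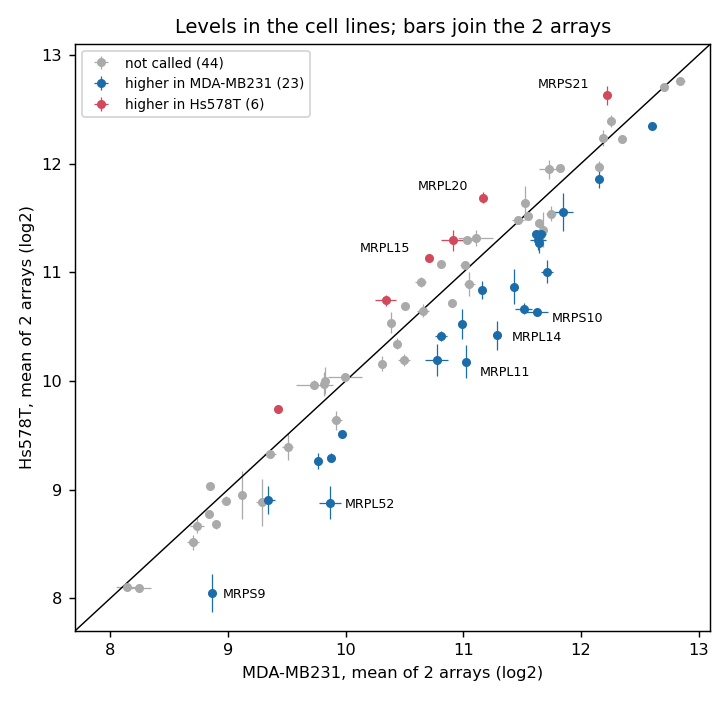
Level of each of the 73 genes in MDA-MB231 (horizontal axis) and Hs578T (vertical axis), as the mean log2 value of the control and FBP1 arrays, with bars joining the arrays of a line; the diagonal marks equal levels and colours mark limma calls. The 23 genes called higher in MDA-MB231 lie below the diagonal, with MRPS10 and MRPL52 at 1.99-fold, and the 6 called higher in Hs578T lie above it.

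Genes were then set beside their chromosomal neighbours. For each gene, the 10 nearest tested genes on each side in the RefSeq order (GRCh38.p14) were taken, other mitochondrial ribosomal protein genes left out. Of the 23 genes higher in MDA-MB231, 20 had neighbours whose median was also on the MDA-MB231 side, and 5 of the 6 genes higher in Hs578T had neighbours on the Hs578T side. Any median off 0 was counted, however small, such as −0.006 for MRPL50 and −0.01 for MRPL11. The same share over all genes called between the lines is not given, so the counts are not shown to be particular to these genes. Of the 44 genes not called, 19 had neighbours below 0 and 25 above. Across the 73 genes, the gene's difference and its neighbours' median correlated at r = 0.625 (rho = 0.612), as a description, since nearby genes share neighbours and all share the 4 arrays.

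MRPS10, MRPL2 and MRPL14 lie on 1 chromosome with 16 and 23 tested genes between them. Their neighbours had medians of −0.69, −0.41 and −0.27. MRPS18A lies 3 tested genes from MRPL14 and was not called, with a difference of −0.19. Several called genes stood apart from their neighbours. Among them were MRPL11 (−0.84 against −0.01), MRPS2 (−0.70 against −0.02), MRPL33 (−0.58 against 0.07) and MRPL46 (−0.57 against −0.05). MRPS23 (−0.50 against −0.04), MRPS5 (−0.34 against 0.08) and MRPS21 (0.41 against −0.22) did so too. For the 12 genes at least 1.2-fold higher with FBP1 in Hs578T, the neighbours' median change there lay between −0.04 and 0.14 log2.

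**Figure D5:**
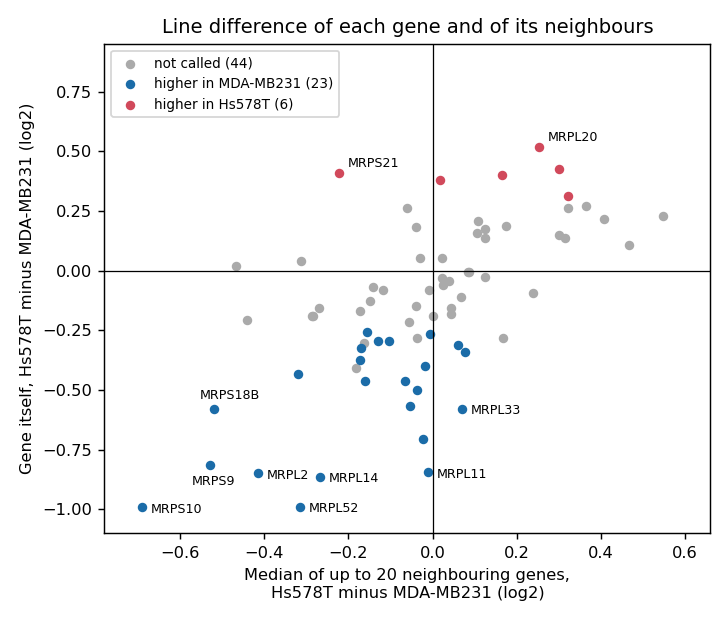
Difference of each of the 73 genes between the lines (vertical axis, log2, Hs578T minus MDA-MB231) against the median difference of its up to 20 neighbouring tested genes (horizontal axis, same scale); colours mark limma calls. MRPS10 (−0.99 with neighbours at −0.69) lies at the lower left, and MRPL11 (−0.84 with neighbours at −0.01) lies below its neighbours.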

How the data were processed

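RNA from MDA-MB231 and Hs578T cells was measured on Affymetrix arrays, with 1 array for each line and construct. The authors deposited 1 table of log2 values for 33297 probe sets, and its log2 scale was taken from the values. The submitters' processing notes name Affymetrix Expression Console 1.1.2800.28061, and the normalization is not given in the sources. Probe sets listed for 1 gene were kept, with the highest mean over the 4 arrays per gene. A gene was tested when its mean reached log2 6.16, the 25th percentile over probe sets, which kept 15946.

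Changes within a line are differences of 2 arrays, counted at 1.2-fold and 1.5-fold, with no test. The limma 3.58.1 fit in R 4.3.3 over all genes had terms for line and construct, an intensity trend, 1 residual degree of freedom and a prior of 5.04; calls were made at 0.05 after Benjamini-Hochberg adjustment. The number of arrays limits the precision. Only the line term of the fit was tested on simulated data, with independent noise on each array. The FBP1 term was not. Genes named were those with the largest changes or called differences, members of the related lists with the largest changes, and others as needed. Members, gene lists, promoter motifs and the grouping by site were chosen with earlier results of these data known. Alternatives covered the filter, scaling, probe set averaging, the variance prior, the block, the thresholds and the subunit assignment.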

Additional observations from a re-analysis of the deposited data

Results flagged for a closer look

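The large subunit median was below 0 in MDA-MB231 and above 0 in Hs578T, with the Hs578T median 0.13 log2 higher; with quantile normalization the MDA-MB231 median was 0.0006, so the signs were then the same. At 1.1-fold or more each way, 3 genes were lower with FBP1 in MDA-MB231 and higher in Hs578T: MRPL49, with changes 0.44 apart, MRPL21, 0.41 apart, and MRPL47, 0.35 apart. With 1 array per group, none of these differences between the lines was tested. The size used to pick the 3 genes was chosen after the data were seen.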

How the results depend on the processing

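At 1.3-fold in place of 1.2-fold, 2 genes (MRPL1 and MRPL57) were higher with FBP1 in Hs578T, and 0 were higher and 0 lower in MDA-MB231. Genes at least 1.2-fold higher in MDA-MB231 than in Hs578T numbered 26 over both constructs and 16 between the FBP1 arrays. Those higher in Hs578T numbered 9 over both constructs, 5 between the control arrays and 15 between the FBP1 arrays. The shares of all genes tested are not given for these 1.3-fold changes and 1.2-fold line differences. These counts therefore show only how the numbers move with the threshold. With 1 array left out at a time and the construct term dropped, a choice made after the data were seen, the spread came from 1 line alone, and limma called 7 to 30 genes higher in MDA-MB231 and 1 to 11 higher in Hs578T. For these leave-out fits too, the shares of all genes tested are not given. Limma called 0 of the 73 genes for FBP1 in every fit run, also with no replicate block, where the lines are not paired. Other alternatives were run for the subunit medians, the counts per line and the line calls. In them each median moved by less than 0.0748 log2, the median residual SD, and each count by at most 1.5 times. That bound is wide, since the MDA-MB231 subunit medians were only −0.0234 and 0.0316. Within it, the small subunit median in Hs578T went from 0.0975 to 0.154 with MRPS18A and MRPS30 moved. The MRPL21 and MRPL22 calls were lost without the filter (limma adjusted p 0.0519 and 0.055) and with the robust prior (0.0544 and 0.0509), and that of MRPL21 also with median centring (0.0586), quantile normalization (0.0514) and no trend in the prior (0.063).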

Other observations

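Probe sets listed for a mitochondrial ribosomal protein gene and a second gene were left out of the 73. Their values went the same way in Hs578T. The probe set of MRPS6 and SLC5A3 changed by 0.07 in MDA-MB231 and 0.29 in Hs578T, that of MRPS24 and its read-through gene with URGCP by 0.06 and 0.24, that of MRPL51 and SPTLC1 by −0.06 and 0.14, and that of MRPS28 and TPD52 by −0.03 and 0.08. Which of the listed genes each value measures cannot be told apart.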
